A study of Mus musculus with 6 samples.

Results

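The mouse Hox genes were followed in cells of the jawbone periosteum, the sheath around bone in which skeletal progenitors reside. Members were all rows of the count and FPKM tables whose gene symbol is Hox, a cluster letter from a to d and a number. Described here are 24 such genes of 18002 listed. RefSeq GRCm38.p6 names 39 Hox genes, and the others are not used here. RNA came from primary mouse jawbone cells harvested after 48 h either as spheroids (labelled aggregate_P) or as a flat monolayer (labelled monolayer_P), with 3 libraries per format. The labels name the cells only as primary cells from jawbone, and the series' design text adds the periosteum. The sources used here give no strain, age or number of animals, and name no genetic change or added agent. Nothing in them ties the replicates to separate cultures or animals. The p-values therefore reflect the variation among these 6 libraries alone, and that variation may be technical.

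Hox genes encode homeodomain transcription factors that sit in 4 clusters, and their order along each cluster follows the order of the body regions in which embryos use them. Low paralog numbers act in the hindbrain and neck, and high numbers in the trunk, limbs and tail. Neural crest cells that build the jaw in the embryo arise in front of the Hox-expressing domain and are known to lack Hox expression, while the skeleton of the trunk and limbs keeps a Hox code into adult life. The comparison of spheroids with monolayers asked whether the culture format went with a different set or level of Hox transcripts.

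The members described with enough reads for a test were Hoxc13, Hoxd4, Hoxd8 and Hoxd9. Their homeobox, the 180 bases that encode the DNA-binding homeodomain, is shown in part for Hoxc13 and Hoxd8, the former lower in spheroids and the latter the highest in level, to let a reader judge how alike they are. The stretch covers codons 41 to 60 of the homeobox, taken from GENCODE M21 transcripts (GRCm38), and capitals mark the core of the segment that encodes the DNA recognition helix.
Hoxc13: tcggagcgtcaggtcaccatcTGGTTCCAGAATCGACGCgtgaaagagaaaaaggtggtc
Hoxd8: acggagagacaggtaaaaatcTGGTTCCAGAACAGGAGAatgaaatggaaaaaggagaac

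Across the whole homeobox, Hoxc13 and Hoxd8 had 51.7% identical bases, and their longest identical run was 14 bases. Over their full transcripts, 0 of the 50-base windows of Hoxc13, Hoxd8 and Hoxd9 occurred in a transcript of another gene. Hoxd4 shared 46.8% of its windows, with Hoxd3, Gm28230 and Hoxd3os1, so its level and that of Hoxd3 are uncertain. Whether counting used strand is not given in the sources used here, so reads of a gene and of an antisense neighbour such as Hoxd3os1 cannot be told apart where they overlap.

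Hoxd8 and Hoxd9 are neighbours on chromosome 2 and had the highest spheroid FPKM of the 24 members described, so their promoters are shown side by side. Each is 300 bases of RefSeq GRCm38.p6, plus strand, from 250 bases before to 50 after the annotated start. Capitals mark CCAAT boxes, GC boxes and the AGGTCA motif that retinoid receptors bind, on either strand.
Hoxd8, chr2:74704365-74704664: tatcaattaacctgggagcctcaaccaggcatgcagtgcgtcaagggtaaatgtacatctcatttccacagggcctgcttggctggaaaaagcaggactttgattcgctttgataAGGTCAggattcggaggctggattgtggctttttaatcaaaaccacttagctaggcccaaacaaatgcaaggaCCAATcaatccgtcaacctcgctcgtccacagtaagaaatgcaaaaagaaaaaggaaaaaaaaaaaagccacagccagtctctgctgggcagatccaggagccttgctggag
Hoxd9, chr2:74697513-74697812: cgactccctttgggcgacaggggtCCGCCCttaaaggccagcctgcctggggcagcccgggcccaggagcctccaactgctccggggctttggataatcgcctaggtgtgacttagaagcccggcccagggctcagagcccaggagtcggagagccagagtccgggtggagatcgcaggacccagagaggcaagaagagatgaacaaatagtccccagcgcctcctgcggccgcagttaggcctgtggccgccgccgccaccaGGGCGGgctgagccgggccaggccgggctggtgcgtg

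The Hoxd8 promoter held 1 CCAAT box (CCAAT, present in 37.4% of 32851 promoters of the same length), 1 retinoid receptor motif (AGGTCA, 16.3%) and 0 GC boxes (GGGCGG, 35.7%). The Hoxd9 promoter held 2 GC boxes and neither of the others. Hoxd8 had 6 CpG dinucleotides in this window and Hoxd9 had 20, against a median of 7 over all promoters. Neither window held a TATA box (TATAAA, 13.6%) or a Hox-Pbx site (TGATNNAT, 8.85%). All motifs were searched on both strands. The RefSeq table held promoters for 15 of the 24 members described.

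Total counts were alike in all 6 libraries, between 21701010 and 21889071 reads. All 13 mesenchymal markers of the periosteum were tested, 6 higher and 5 lower in spheroids, beside 74.2% of all tested genes called in either direction. Their summed level was 6914 ± 99.5 FPKM in spheroids and 10370 ± 51.3 FPKM in monolayers (SD, n = 3). Col1a1 stood at 2216 and 4758 FPKM in spheroids and monolayers, and Postn at 1707 and 744 FPKM. Prrx1, a transcription factor gene of skeletal progenitors, stood at 162 ± 5.08 FPKM in spheroids and 143 ± 4.96 FPKM in monolayers (SD, n = 3). Markers of other cells were higher in spheroids. The summed level of 12 skeletal muscle markers ranged from 435 to 461 FPKM there against 21.8 to 22.4 FPKM in monolayers. Endothelial markers (13 genes) ranged from 168 to 172 against 30.7 to 31.6 FPKM, macrophage and leukocyte markers (14 genes) from 143 to 151 against 27.6 to 30.8 FPKM, and Schwann cell markers (9 genes) from 66.0 to 67.0 against 12.8 to 13.8 FPKM. Their part in the Hox values below was not tested.

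Hox transcripts were scarce in both formats. Reads of the 24 genes came to between 202 and 224 in a spheroid library and between 193 and 200 in a monolayer library, or 8.97 to 10.15 CPM (reads scaled to the TMM-adjusted library size). Most came from one gene: Hoxd8 gave 61.2% ± 3.62 of these reads in spheroids and 60.7% ± 2.43 in monolayers (SD, n = 3).

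**Figure D1:**
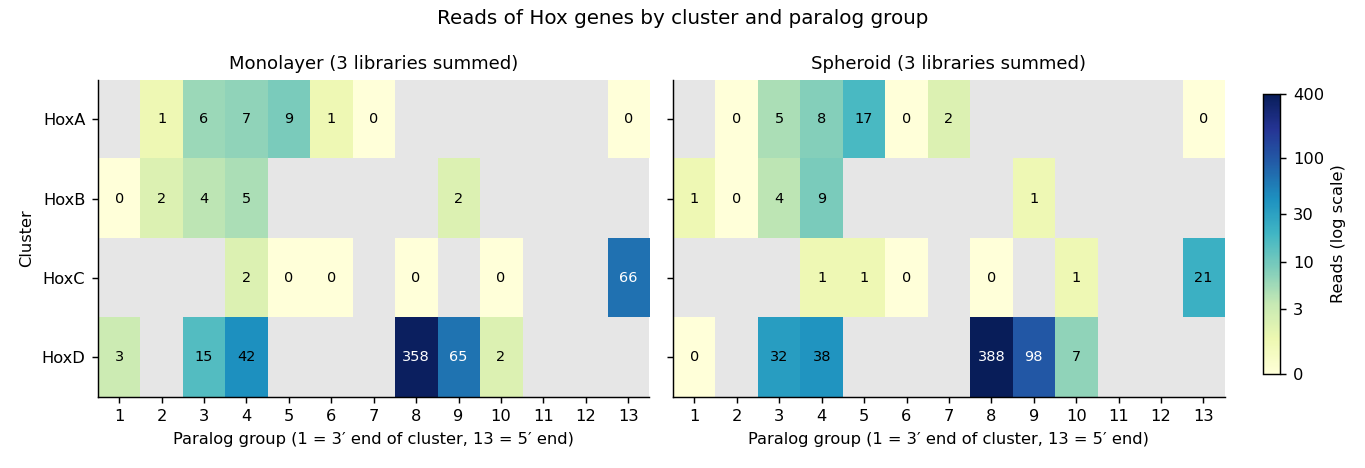
Reads of the 24 Hox genes described, summed over 3 libraries per format, with clusters in rows and paralog groups in columns, on a log colour scale; grey cells are positions not used here or with no such gene in the mouse. Reads concentrate in Hoxc13, Hoxd3, Hoxd4, Hoxd8 and Hoxd9 in both formats, with 388 and 358 reads for Hoxd8 in spheroids and monolayers.

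A set of 8 members had at least 1 read, counts being rounded to whole numbers, in all 6 libraries: Hoxa4, Hoxa5, Hoxb4, Hoxc13, Hoxd3, Hoxd4, Hoxd8 and Hoxd9. To these, spheroid library 1 added Hoxa3, Hoxb3, Hoxb9 and Hoxd10, for 12 members. Spheroid library 2 added Hoxa3, Hoxa7, Hoxb3, Hoxc10 and Hoxd10, for 13. Spheroid library 3 added Hoxa3, Hoxa7, Hoxb1, Hoxb3, Hoxc4, Hoxc5 and Hoxd10, for 15. The spheroid libraries thus differed among themselves by genes with few reads. Monolayer library 1 added Hoxa2, Hoxa3, Hoxb2, Hoxb9 and Hoxd1, for 13 members. Monolayer library 2 added Hoxa3, Hoxb3, Hoxb9, Hoxd1 and Hoxd10, also for 13. Monolayer library 3 added Hoxa6, Hoxb2, Hoxb3, Hoxc4 and Hoxd10, again for 13. Both formats reached 17 members over their 3 libraries, and 13 of these were common to both.

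The members found in 1 format only had at most 3 reads. Hoxa7 had 2 spheroid reads, and Hoxb1, Hoxc5 and Hoxc10 had 1 each. Hoxd1 had 3 monolayer reads, Hoxb2 had 2, and Hoxa2, the selector gene of the second pharyngeal arch, and Hoxa6 had 1 each. A count of 0 over 3 libraries allows a level of up to 0.0455 CPM in spheroids and 0.0463 CPM in monolayers, for counting error only, so these differences were not detectable at this depth. Hoxa13, a gene of the hands and feet, and Hoxc6 and Hoxc8, genes of the thoracic region, had 0 reads in all 6 libraries. Before rounding, 373 of all listed rows were at 0 in all 6 libraries.

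Detection of Hox genes was sparse beside other genes. Between 50% and 62.5% of the 24 members had a read in a library, against 88.1% to 90.3% of all listed genes. At least 10 reads were reached by 3 or 4 members per library, or 12.5% to 16.7%, against 73.3% to 76.2% of all listed genes. Among the 24, Hoxd8 and Hoxd9 had at least 10 reads in every one of the 6 libraries.

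On the FPKM scale, which is per length and allows levels of different genes to be compared, Hoxd8 stood at 3.18 ± 0.121 in spheroids and 3.12 ± 0.0351 in monolayers (SD, n = 3). It was the 1 of the 24 members above 1 FPKM in either format, and lay below the median of all listed genes, 4.23 and 3.77 FPKM. In spheroids Hoxd9 followed at 0.733 ± 0.144 FPKM, then Hoxd4 at 0.230 ± 0.0889 FPKM, Hoxd3 at 0.173 ± 0.0513 FPKM, Hoxa5 at 0.143 ± 0.0513 FPKM and Hoxc13 at 0.137 ± 0.0862 FPKM. From Hoxd4 down, each neighbour in that order differed from the next by less than the larger SD of the pair. In monolayers Hoxd9 stood at 0.487 ± 0.0635 FPKM and Hoxc13 at 0.420 ± 0.0346 FPKM, separated by about their SD, above Hoxd4 at 0.253 ± 0.0751 FPKM. The median of the 24 members stood at 0.0117 FPKM in spheroids and 0.0217 FPKM in monolayers.

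Homeobox and related factor genes that pattern the jaw and head stood far higher in the same libraries. The median of 27 such genes was 7.89 FPKM in spheroids and 7.60 FPKM in monolayers, and 16 of the 27 lay above Hoxd8 in each format. Barx1, a homeobox gene of the developing jaw and molars, had 39.2 ± 2.19 and 51.4 ± 2.46 FPKM, and Dlx5, which sets lower jaw identity, had 16.4 ± 0.981 and 22.7 ± 0.943 FPKM. Otx1 and Otx2, head genes of the forebrain, had at most 2 reads in a format.

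**Figure D2:**
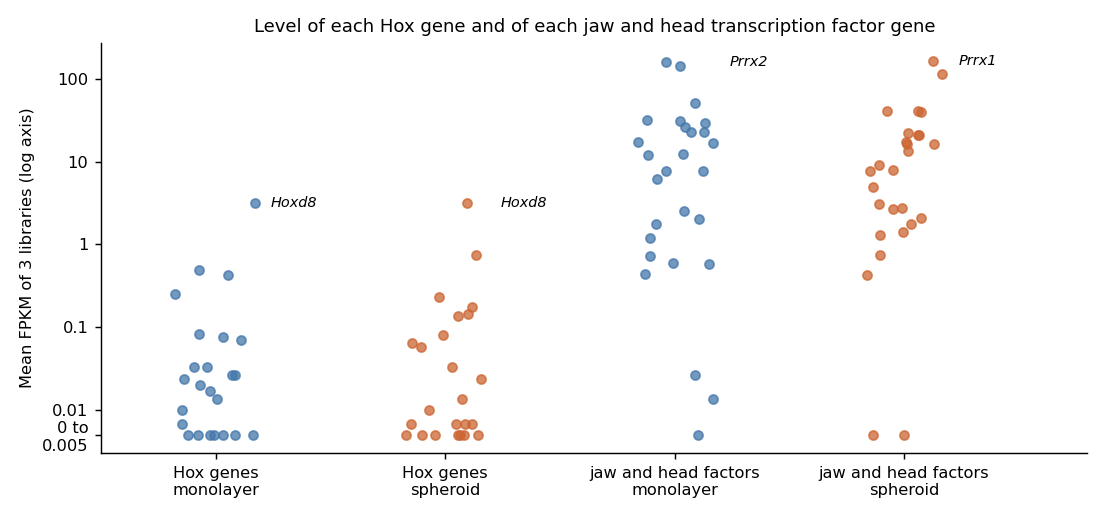
Mean FPKM of 3 libraries, on a log axis, for the 24 Hox genes described and 27 transcription factor genes of the jaw and head in monolayers (blue) and spheroids (orange), 1 point per gene; points at the bottom tick are 0 to 0.005 FPKM. Hoxd8, near 3.1 FPKM, is the highest of these Hox genes in both formats and 16 of the 27 head factors lie above it.

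Of the 24 members, 4 passed the filter on low counts and were tested between the formats, and 20 were not. Hoxc13 was lower in spheroids and Hoxd9 was higher, while Hoxd4 and Hoxd8 did not pass the threshold (edgeR quasi-likelihood test, Benjamini-Hochberg adjusted p below 0.05 over 13708 genes). The background was high, with 74.2% of tested genes called in either direction, 37.1% higher and 37.1% lower. A count of 2 called among the 4 tested is therefore no result about Hox genes as a group, and the members are described one by one. The CPM values of the formats did not overlap for 2 of the 4, against 75.8% of all tested genes. Fewer expressing cells and less RNA per cell cannot be told apart in such bulk libraries.

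Hoxc13 is the last gene at the 5′ end of its cluster and is known for its role in hair and nail formation, where it acts in epithelial cells. It lies on chromosome 15 (gene ID 15422, 102921131 to 102928814). Its reads were 21, 21 and 24 in monolayers and 3, 12 and 6 in spheroids. The spheroids varied widely among themselves, and each still lay below every monolayer. Levels were 1.02 ± 0.0768 CPM in monolayers and 0.319 ± 0.210 CPM in spheroids. The log2 fold change was -1.66 ± 0.36 (SE, edgeR adjusted p = 0.000146), a 3.16-fold lower level. A fall of at least 2-fold past the threshold was found for 6.67% of all tested genes. The summed reads alone gave 3.20 times more in monolayers, with a 95% counting interval of 1.93 to 5.51 (exact binomial). Without spheroid replicate 2, which held the 12 reads, the log2 fold change was -2.29. The 7 listed epithelial markers had a summed level of 0.240 to 0.350 FPKM in monolayers and 1.36 to 1.61 FPKM in spheroids. Trp63 gave most of the spheroid sum, at 1.33 FPKM, and was the 1 marker tested. Of the others Cdh1 had 14 monolayer and 6 spheroid reads, Krt5 had 2 and 1, and Krt14 and Krt8 were at 0 in all libraries. Their part in the Hoxc13 result was not tested.

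Hoxd9 takes part in patterning of the forelimb and lumbar spine. It lies on chromosome 2 (gene ID 15438, 74697763 to 74700208). Reads were 20, 20 and 25 in monolayers and 40, 29 and 29 in spheroids. Spheroid library 1 was the highest, and the lowest spheroids lay just above the highest monolayer. Levels were 1.003 ± 0.130 CPM and 1.49 ± 0.284 CPM, and the log2 fold change was 0.56 ± 0.24 (SE, edgeR adjusted p = 0.0361), a 1.48-fold higher level with a counting interval of 1.07 to 2.06. This call was lost in DESeq2 (adjusted p = 0.141). It was also lost without spheroid replicate 1 (edgeR adjusted p = 0.213), without monolayer replicate 1 (0.106) and without monolayer replicate 2 (0.0957).

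Hoxd8 belongs to the central paralogs and lies next to Hoxd9 (gene ID 15437, 74704615 to 74707933). Reads were 121, 121 and 116 in monolayers and 133, 119 and 136 in spheroids. The ranges overlapped, and the spread within a format was small. Levels were 5.52 ± 0.152 CPM and 5.88 ± 0.385 CPM, and the log2 fold change was 0.09 ± 0.11 (SE, edgeR adjusted p = 0.466). The 95% interval of the fitted change, from -0.13 to 0.31, does not reach a change of the size fitted for Hoxc13 or Hoxd9. Whether Hoxd8 and Hoxd9 changed differently was not tested, and the reads of Hoxd9 per Hoxd8 read overlapped between the formats, at 21.3% to 30.1% in spheroids and 16.5% to 21.6% in monolayers.

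Hoxd4, a gene of the neck vertebrae, had 10, 14 and 18 reads in monolayers and 18, 9 and 11 in spheroids. The formats overlapped, and each had a library with 18 reads. The log2 fold change was -0.17 ± 0.35 (SE, edgeR adjusted p = 0.670), with an interval from -0.85 to 0.51 that leaves a change in either direction possible. Hoxd3, which overlaps it, lay just under the filter with 3, 6 and 6 monolayer reads and 10, 14 and 8 spheroid reads. Every spheroid held more Hoxd3 reads than every monolayer, a ratio of 2.10 with a counting interval of 1.103 to 4.165, and 53.1% of its exon bases are shared with Gm28230 and 9.26% with Hoxd4. Without a filter the edgeR adjusted p of Hoxd3 was 0.0650.

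**Figure D3:**
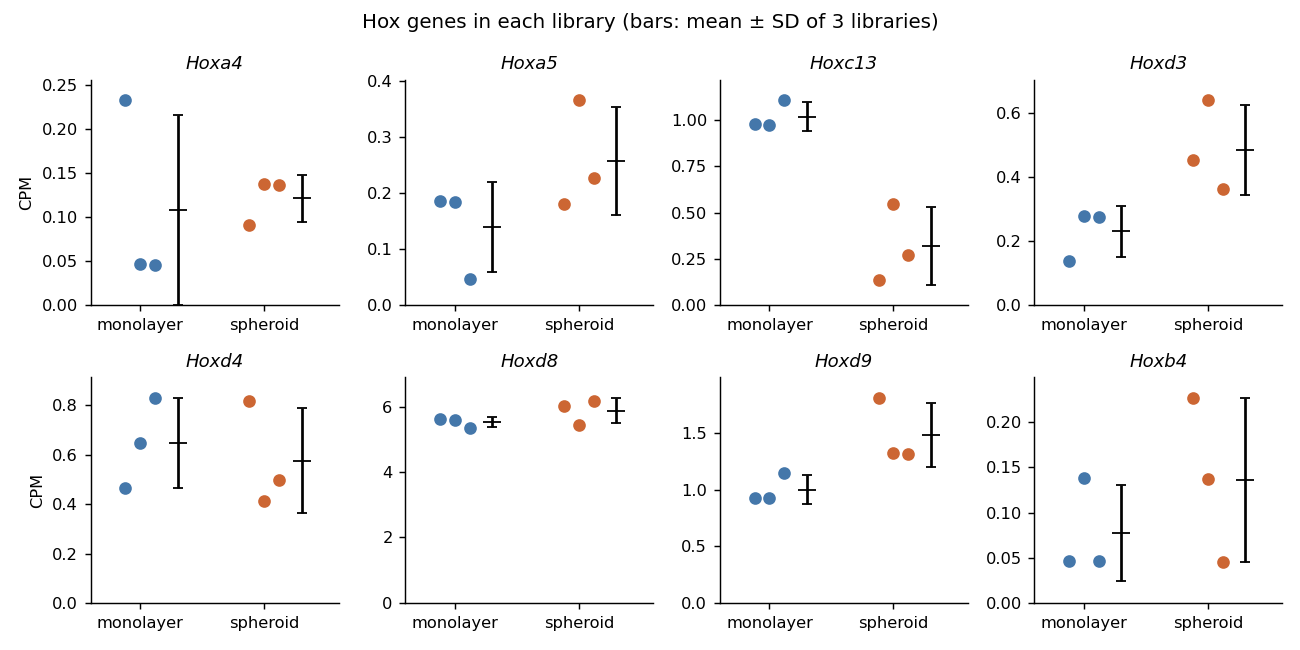
CPM of 8 Hox genes in each of the 6 libraries, with 1 point per library and a bar for the mean ± SD of 3 libraries; each panel has its own axis from 0. Monolayers stand above spheroids for Hoxc13, spheroids above monolayers for Hoxd3 and Hoxd9, and the formats overlap for Hoxa4, Hoxa5, Hoxb4, Hoxd4 and Hoxd8.

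The other members with at least 10 reads in all had too few for a test. Hoxa5, which acts in the lung and at the border of neck and thorax, had 4, 4 and 1 reads in monolayers and 4, 8 and 5 in spheroids. Hoxb4, known from blood stem cells, had 1, 3 and 1 reads in monolayers and 5, 3 and 1 in spheroids. Hoxa4 had 5, 1 and 1 reads in monolayers and 2, 3 and 3 in spheroids, and Hoxa3, a gene of the third pharyngeal arch and thymus, 4, 2 and 0 and 2, 1 and 2. The formats overlapped in all 4 genes, and each counting interval of the ratio included 1. Hoxd10, a posterior gene of the limb, had 0, 1 and 1 monolayer reads and 5, 1 and 1 spheroid reads. The 12 detected members under 10 reads held 35 reads in all, of 1224 reads of the 24 genes.

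**Figure D4:**
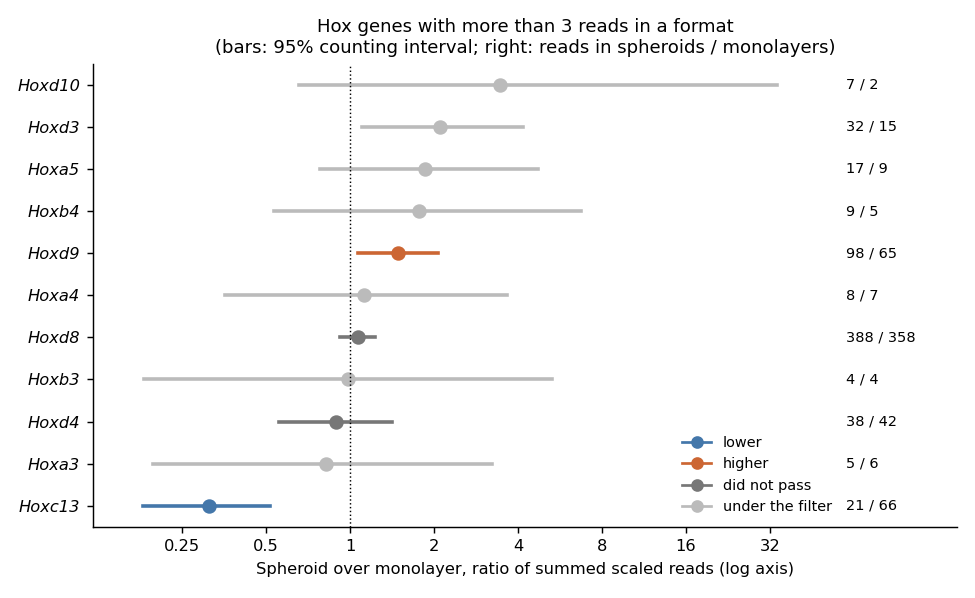
Ratio of spheroid to monolayer level, on a log axis, from reads summed over 3 libraries per format, with its 95% counting interval, for the 11 Hox genes described with more than 3 reads in a format; the summed reads stand at the right. Hoxc13 lies at 0.313, Hoxd8 lies at 1.07 with a narrow interval, and the intervals of genes with few reads are wide.

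The reads of HoxD and HoxC came mostly from single genes. HoxD held 563 reads in spheroids and 485 in monolayers, of which Hoxd8 gave 388 and 358. HoxC held 24 and 68 reads, of which Hoxc13 gave 21 and 66. HoxB held 15 and 13 reads, spread over 5 members, with 9 and 5 for Hoxb4 and 4 and 4 for Hoxb3. By paralog number, groups 5 to 8 held 408 reads in spheroids and 368 in monolayers, and groups 9 to 13 held 128 and 135. The posterior sum thus combined Hoxd9, higher in spheroids, with Hoxc13, lower there.

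Pbx, Meis and Pknox proteins of the TALE class bind DNA together with Hox proteins. The TALE list used here also holds Tgif1 and Tgif2, which lie outside those families and were both called higher. Of 10 tested TALE genes, 6 rose, 1 fell and 3 did not pass, with a median log2 fold change of 0.22 beside 0.00 for all tested genes. The 7 of 10 called are near the 74.2% called among all tested genes. Pbx4, with 20 spheroid and 30 monolayer reads, was not tested. Tgif1 rose by 0.64 ± 0.04 and Meis3 by 0.36 ± 0.05 on the log2 scale, while Pknox2 stood at -0.83 ± 0.08 (SE). Meis1 and Meis2 did not pass, at 647 and 2187 spheroid reads against 634 and 1994 monolayer reads.

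Polycomb complexes keep Hox clusters silent and trithorax complexes keep them active. Of 31 tested Polycomb genes 16 rose, 11 fell and 4 did not pass, with a median of 0.11. Phc2 rose by 0.72 ± 0.04 (SE) and Jarid2 by 0.74 ± 0.07, while Phf19 stood at -1.64 ± 0.15. Ezh2, the main H3K27 methyltransferase gene, had 1526 spheroid and 1756 monolayer reads and was called lower (edgeR adjusted p = 0.00124). Of 23 trithorax and demethylase genes 9 rose, 7 fell and 7 did not pass, with a median of 0.06. Kmt2a, which encodes the methyltransferase that maintains Hox expression, did not pass (edgeR adjusted p = 0.126), and Kdm6a, an H3K27 demethylase gene, rose by 0.44 ± 0.06. Called shares of 27 of 31 and 16 of 23 stand beside 74.2% of all tested genes.

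Regulators that act upstream of Hox transcription in the embryo moved in both directions. Of 16 tested genes 9 rose, 6 fell and 1 did not pass, with a median of 0.13, against 74.2% of all tested genes called. Among the 4 listed but not tested, Cdx1 had 2 spheroid and 3 monolayer reads, Cyp26a1 had 6 and 0, and Cyp26c1 had 0 and 4. Retinoic acid induces several Hox genes in the embryo. The genes for its synthesis, Aldh1a1, Aldh1a2 and Aldh1a3, had log2 fold changes of -2.19 ± 0.10, -1.06 ± 0.05 and -0.54 ± 0.07 (SE). Rarb, a receptor gene that retinoic acid also induces, rose by 1.45 ± 0.11, while Cyp26b1 was called lower at -0.12 ± 0.05. Egr2, a hindbrain regulator of Hox genes, rose by 2.00 ± 0.06. Schwann cells express Egr2 too, and the Schwann cell marker list stood higher in spheroids, as given above, a part that was not tested.

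Genes that flank the clusters did not share one direction. Of 9 tested, 3 rose, 4 fell and 2 did not pass, with a median of -0.02. The 7 of 9 called are near the 74.2% of all tested genes. Beside HoxD, Lnpk stood at -0.24 ± 0.05 (SE), and Mtx2 was called lower with 2572 spheroid and 2725 monolayer reads. Beside HoxA, Skap2 stood at -0.43 ± 0.07 and Hibadh did not pass. Near HoxC, Calcoco1 rose by 0.83 ± 0.04 and Smug1 by 0.45 ± 0.08, while Hoxc13 itself was lower. Of further homeobox genes, of the Gbx, Meox, Nkx, Lbx, Tlx, Hlx and Vax families, 5 of 13 listed were tested. Hlx stood at 0.94 ± 0.07 and Meox2 at -0.93 ± 0.06. The muscle precursor gene Lbx1, with 42 spheroid and 3 monolayer reads, was called higher like Hlx, beside the higher muscle markers given above. Against the same 74.2%, jaw and head factors had 11 of 25 tested genes higher and 11 lower, among them Dlx3 at 2.34 ± 0.14 and Pitx1 at -0.60 ± 0.04. Trunk and limb mesoderm genes had 2 of 9 tested higher and 3 lower, with Tbx18 at 0.42 ± 0.06 and En1 at -0.60 ± 0.10. The summed level of the 11 listed ranged from 41.5 to 43 FPKM in spheroids and from 38 to 40.8 FPKM in monolayers. Levels differed widely within this list. Tbx15 was the highest, at 15.05 FPKM in spheroids and 11.65 FPKM in monolayers, followed by Foxf1 at 8.37 and 9.50 FPKM. Tbx4 stood at 1.03 and 1.06 FPKM, Tbx5 at 0.217 and 0.290 FPKM and Lmx1b at 0.160 and 0.130 FPKM. Wt1 had 5 reads in each format and Tcf21 had 1 read in all. Whether the summed level marks trunk or limb cells was not tested.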

How the data were processed

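Total RNA was sequenced on the DNBSEQ platform, per the labels' protocols, and reads were placed on the GRCm38.p6 build by HISAT, per the submitters' processing notes. Which HISAT version, counter, annotation and strand setting were used is not given in the sources used here. Expected counts, as the authors deposited them, need not be whole (28.9% to 30.6% of values per library had decimals). The deposited FPKM values are written to 2 decimals. Counts were rounded, which changed no library total by more than 0.000255%. Genes were kept with filterByExpr at a minimum count of 10 and tested with edgeR 4.0.16 (R 4.3.3), with TMM factors from 0.985 to 1.02, robust quasi-likelihood fits and p-values adjusted by Benjamini-Hochberg across the 13708 genes kept, at a threshold of 0.05. SEs come from the F statistic, and the 95% interval of a fitted change is taken from the SE. For members with few reads a 95% exact binomial (Clopper-Pearson) interval of the summed reads is given; intervals and the floor of 3 reads cover counting error only. The edgeR fit was tested on simulated data in which few genes changed. Most tested genes were called in the real libraries, so that test does not cover changes of this breadth. Replicate pairs differed by more than counting noise (mean chi-square ratio 1.90 to 2.91), so each library was counted once.

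Alternatives were RLE factors, a library size without the 10 most abundant genes, DESeq2 1.42.0, limma 3.58.1 (voom, and log2 FPKM with pseudocounts of 1 and 0.1), other filters, a replicate block and leaving out each library. Members and lists were chosen with earlier results of these data known. One further gene (1 of 25 that match the rule) and a few named-gene results and sequences are not reported here, so Hox sums and counts leave that gene out and do not describe all Hox genes. Members with at least 10 reads in all are given per library. In each list up to 3 risers and 3 fallers past the threshold with at least 5 CPM were eligible for naming, and other genes were named after their values were seen. Sequences are from RefSeq GRCm38.p6 and GENCODE M21.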

Additional observations from a re-analysis of the deposited data

How the results depend on the processing

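Hoxc13 was called lower under every alternative that tested it, at log2 fold changes of -2.29 to -1.30 when 1 library was left out. Raising the minimum count to 30 left 1 of the described Hox genes tested, Hoxd8, with 0 called lower and 0 higher. DESeq2 called 0 of them higher, since Hoxd9 lost its call (adjusted p = 0.141). Leaving out 1 library gave 0 to 2 called higher and 1 lower in each case. Hoxd3 passed the filter in 4 of these and was called without spheroid replicate 3 (edgeR adjusted p = 0.0279) and without monolayer replicate 2 (0.0479). At least 3 reads in place of 1 gave a mean of 7.67 members per spheroid and 7 per monolayer library, at least 10 reads gave 3.67 and 4, and an FPKM of at least 0.1 gave 6 and 5.67. In place of CPM, FPKM moved the monolayer shares of HoxC and HoxD among the 24 genes to 9.24% and 84.5%, from 11.5% and 82.2%.

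With a replicate block, 1 described Hox gene was called higher and 1 lower, as without it, and 5120 of all genes were higher and 5118 lower. The numbers were not shown to pair the libraries, since deviations of same-numbered libraries correlated at -0.0490, 0.0713 and 0.0601. Depth limits 20 of the 24 members, which had too few reads for a test.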
